A study of Homo sapiens with 10 samples.

Results

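FOS, JUN, JUNB, EGR1 and ATF3 are immediate-early genes, taken here by their hg19 positions with 20 kb on each side. All 5 genes were found in the deposited tracks, where they and their flanks fill 273 of the 2820626 bins of 1 kb. FOS lies at chr14:75745481-75748937, JUN at chr1:59246463-59249785, JUNB at chr19:12902310-12904125, EGR1 at chr5:137801181-137805004 and ATF3 at chr1:212738676-212794119. JUN is read from the minus strand and the other four from the plus strand. The measured signal is chromatin, not RNA: no transcript level of any of these genes was measured.

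The mark followed here is gamma-H2AX, histone H2AX with the phosphate that cells add near a double-strand break. CUT&RUN maps it: an antibody guides a nuclease that cuts out the DNA beneath its target. The irradiated cells received 6 Gy of gamma rays from a cobalt-60 source and were left to recover. The groups are K562 gamma-H2AX at 1 h (2 libraries) and at 24 h (2 libraries), HepG2 gamma-H2AX at 1 h (1 library), K562 H3K27me3 at 1 h (1 library), and H2AX from untreated K562 and untreated HepG2 cells (2 libraries each). K562 is a human erythroleukaemia line and HepG2 a human liver carcinoma line, both aneuploid, and neither has an unirradiated gamma-H2AX library here. The labels call the untreated libraries H2AX, while their antibody entry names histone H4. Antibody and irradiation therefore change together between gamma-H2AX and H2AX libraries and cannot be told apart.

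Immediate-early genes are switched on within minutes of a stimulus, from proteins already present in the cell, and the transcripts are short-lived. Growth factors, serum, stress and ionising radiation all induce them. FOS, JUN and JUNB encode subunits of the dimeric AP-1 transcription factor, EGR1 encodes a zinc-finger factor that binds GC-rich sites, and ATF3 encodes a stress-induced factor of the ATF/CREB family that can pair with JUN proteins. After a break, H2AX is phosphorylated over long stretches of chromatin on both sides of it, so the mark is read over a locus and not at a single base.

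The sequences just before the gene starts are shown for EGR1, JUNB and JUN, because in these genes the depth near the start is described further on. Each is the 250 bases before the RefSeq start, 5′ to 3′ on the gene's own strand, in GRCh38.p14. Capitals mark letters that match a searched motif.
EGR1, chr5:138465229-138465478, plus strand: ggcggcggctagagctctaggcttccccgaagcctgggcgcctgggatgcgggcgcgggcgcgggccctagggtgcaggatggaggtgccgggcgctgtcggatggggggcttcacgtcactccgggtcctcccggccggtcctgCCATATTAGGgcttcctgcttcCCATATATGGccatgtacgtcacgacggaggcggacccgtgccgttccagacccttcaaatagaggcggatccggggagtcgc
JUNB, chr19:12791236-12791485, plus strand: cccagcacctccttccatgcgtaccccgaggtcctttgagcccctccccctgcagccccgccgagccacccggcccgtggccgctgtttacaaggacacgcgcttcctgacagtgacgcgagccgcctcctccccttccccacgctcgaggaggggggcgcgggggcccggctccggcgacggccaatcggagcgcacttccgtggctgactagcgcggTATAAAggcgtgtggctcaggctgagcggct
JUN, chr1:58784048-58784297, minus strand: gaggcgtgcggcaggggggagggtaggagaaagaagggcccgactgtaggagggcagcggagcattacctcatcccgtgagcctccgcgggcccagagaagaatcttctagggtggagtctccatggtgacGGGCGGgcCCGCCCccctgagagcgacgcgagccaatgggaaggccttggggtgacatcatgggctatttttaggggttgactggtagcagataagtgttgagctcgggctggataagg
The EGR1 stretch holds a pair of CArG boxes (CC, then 6 A or T, then GG), the motif bound by serum response factor, at -105 to -96 and at -83 to -74 from the start. A CArG box occurs in 1.16% of the 35116 promoter windows of the same length. The JUNB stretch holds a TATA box (TATAAA) at -31 to -26, and the FOS one, not printed, has it at -33 to -28; 10.7% of all windows hold this motif. JUN has 2 GC boxes (GGGCGG), at -119 to -114 and, on the other strand, at -111 to -106. FOS and ATF3 have 1 GC box each, and 42.6% of all windows hold at least 1. The cAMP response element TGACGTCA (1.65% of windows), the AP-1 site TGACTCA (4.2%) and the EGR site GCGTGGGCG (0.72%) were found in none of the 5 windows on either strand. GC content was 64.8% for FOS, 62.0% for JUN, 70.8% for JUNB, 68.4% for EGR1 and 49.2% for ATF3, against a median of 58.0% over all windows. For ATF3 these values are for its outer start. The window before an inner start of ATF3 (chr1:212614768-212615017) held a TATA box at -230 to -225 and no other searched motif, with 44.8% GC. These matches describe letters only. Variants that differ from the searched letters, and sites outside the 250 bases, were not looked for.

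Every level below is the mean coverage depth over the bins of interest divided by the mean depth of its library, so that 1 is the library's own average. A level does not separate the share of cells that carry the mark from the amount in each cell. Dividing by the library mean also removes any gain or loss shared by the whole genome. A lower level is thus a lower share of the library's coverage, not a measured loss of the mark. Mean depth per base was 1.43 and 1.77 in the K562 1 h libraries and 0.518 to 1.09 in the others except 24 h replicate 1, where it was 0.324. Judged by the read length seen in thinly covered bins (60 bp in K562 1 h and H3K27me3, 41 bp in the rest), a short member gene with its 3 to 5 bins holds 20 to 142 reads in a gamma-H2AX or H2AX library. A whole locus holds 351 to 2789 reads in these libraries except 24 h replicate 1, which has 86 at JUNB and up to 1455 at ATF3. Read length thus differs with the group, and its part in the results was not tested. The log2 SD between replicates over all windows was 0.242 at 1 h, 0.0934 in K562 H2AX and 0.0848 in HepG2 H2AX. The test shares 1 spread among groups, which understates the error at 1 h and overstates it for the H2AX pairs. Replicate 1 at 24 h reads 0 in 104 of the 273 member bins (38.1%), against 3 bins (1.1%) in replicate 2, and was left out of the main test; adjusted p-values with it in the fit are given where they end a call. Comparisons with 24 h thus rest on 1 library there, whose error comes from the other groups.

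The 5 loci did not differ in a shared direction 1 h after irradiation. Over gene and flanks together, gamma-H2AX at JUN and ATF3 was below untreated H2AX in K562, JUNB stood above the K562 24 h library, and FOS and EGR1 differed by less than the test could separate from the spread. In K562 at 1 h the order of the locus levels was JUNB, EGR1, ATF3, FOS and JUN; JUNB and EGR1 did not overlap with each other or with the rest, whereas the ranges of ATF3, FOS and JUN overlapped. In untreated K562 H2AX the order was ATF3, JUNB, JUN, EGR1 and FOS, with only JUN and EGR1 overlapping.

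**Figure D1:**
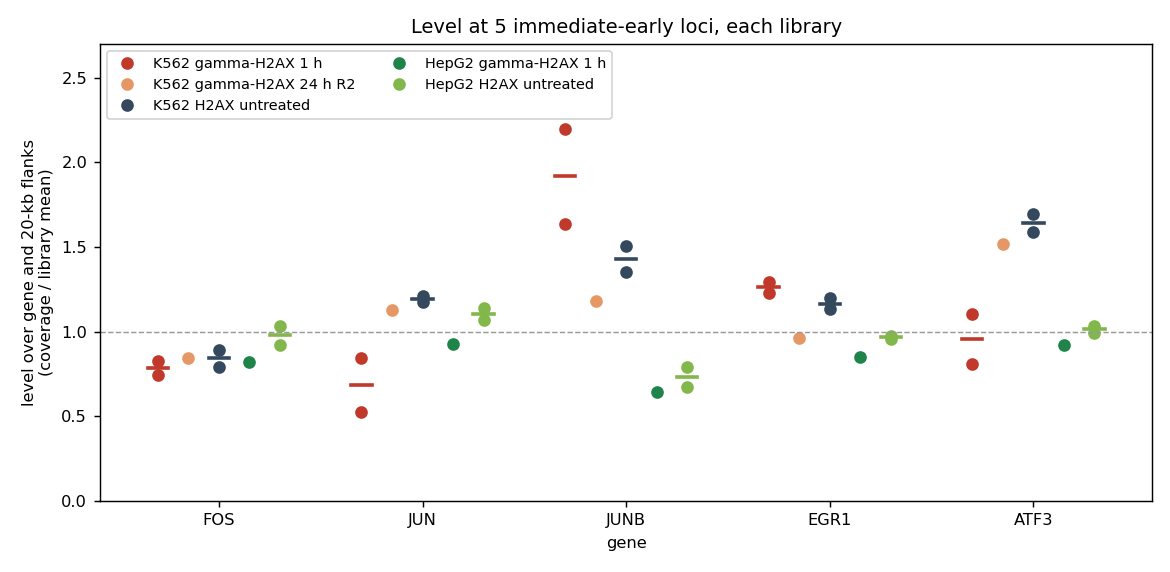
Level over the gene and its 20-kb flanks (coverage divided by the library mean) at the 5 loci, 1 point per library, with a bar at the mean where a group has 2 libraries; 24 h replicate 1 is not drawn. JUNB at 1 h stands at 1.64 and 2.20, above every other value drawn at that locus, while JUN and ATF3 at 1 h lie below their K562 H2AX points.

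FOS, the AP-1 subunit that needs a JUN partner to bind DNA, had levels of 0.829 and 0.742 at 1 h, 0.845 at 24 h (replicate 2) and 0.890 and 0.793 in untreated H2AX. The 1 h and H2AX values overlap, and the 24 h value lies just above both 1 h values and between those of H2AX. The log2 difference of 1 h minus H2AX was -0.09 (SE 0.135, limma adjusted p = 0.545; 95% interval -0.40 to 0.21), and that of 1 h minus 24 h was -0.10 (adjusted p = 0.656).

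JUN, which pairs with itself or with FOS proteins, had 0.845 and 0.525 at 1 h, 1.13 at 24 h and 1.21 and 1.18 in H2AX. Both 1 h libraries are lower than all the others, and they differ from each other more than the H2AX pair does. JUN at 1 h was lower by 0.79 on the log2 scale than H2AX (SE 0.188, limma adjusted p = 0.00425) and by 0.72 than 24 h (adjusted p = 0.0220). The call against H2AX is lost with 24 h replicate 1 in the fit (adjusted p = 0.0849), and the call against 24 h is lost when only those groups enter the fit (0.112) or when libraries are scaled by the median of ratios (0.0613). The size rests on 1 library: without 1 h replicate 2 the differences were -0.47 against H2AX and -0.40 against 24 h.

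JUNB, an AP-1 subunit with weaker activating power than JUN, was the highest locus at 1 h, with levels of 1.64 and 2.20. It had 1.18 at 24 h and 1.51 and 1.35 in H2AX, so both 1 h libraries are higher than the other K562 ones. JUNB was higher by 0.66 on the log2 scale at 1 h than at 24 h (SE 0.201, limma adjusted p = 0.0172). That call is lost with 24 h replicate 1 in the fit (0.0672, with a log2 difference of 1.67). Against H2AX the log2 difference was 0.40 (SE 0.164, adjusted p = 0.0525), which did not pass the threshold of 0.05. It passed under 6 of 13 alternatives, and 1 library weighs heavily: the difference was 0.61 without 1 h replicate 1 (adjusted p = 8.6e-08) and 0.19 without 1 h replicate 2.

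EGR1, the zinc-finger factor, had 1.23 and 1.30 at 1 h, 0.961 at 24 h and 1.13 and 1.196 in H2AX. Both 1 h libraries lie above the others, with a narrow gap to H2AX replicate 2. The log2 difference was 0.11 against H2AX (SE 0.120, limma adjusted p = 0.408) and 0.38 against 24 h (SE 0.147, adjusted p = 0.0513); the difference from 24 h passed under 6 of 11 alternatives.

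ATF3, the longest of the genes at 55444 bases, had 1.11 and 0.809 at 1 h, 1.52 at 24 h and 1.59 and 1.69 in H2AX. Both 1 h libraries are lower than every other K562 library. ATF3 at 1 h was lower by 0.76 on the log2 scale than H2AX (SE 0.147, limma adjusted p = 0.00129) and by 0.65 than 24 h (SE 0.180, adjusted p = 0.0105). The call against H2AX is lost with 24 h replicate 1 in the fit (adjusted p = 0.0560).

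Against K562 H2AX, 2 of the 5 loci were thus called at 1 h, both lower, where 67.7% of all 55375 windows and loci tested were called and 38.5% were called lower. The median log2 difference of the members was -0.09, against 0.04 over all windows (5th to 95th percentile -1.39 to 0.86). Against 24 h, 3 of 5 were called, 1 higher and 2 lower, where 56.8% of all windows were called, 19.1% higher and 37.7% lower. Both counts are close to or below the background shares, so they are no result about immediate-early genes. Both comparisons share the 1 h libraries. The comparison of 24 h with H2AX does not involve them but takes in their wide spread. A lack of calls there does not show that no window differs. Windows were called when only the groups compared were fitted, as given at the end. At 24 h against H2AX, none of the 5 was called by limma and 0% of all windows were, although 12508 windows had an unadjusted p under 0.05; the members' log2 differences were -0.26 for EGR1 and JUNB, -0.11 for ATF3, -0.08 for JUN and 0.01 for FOS.

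**Figure D2:**
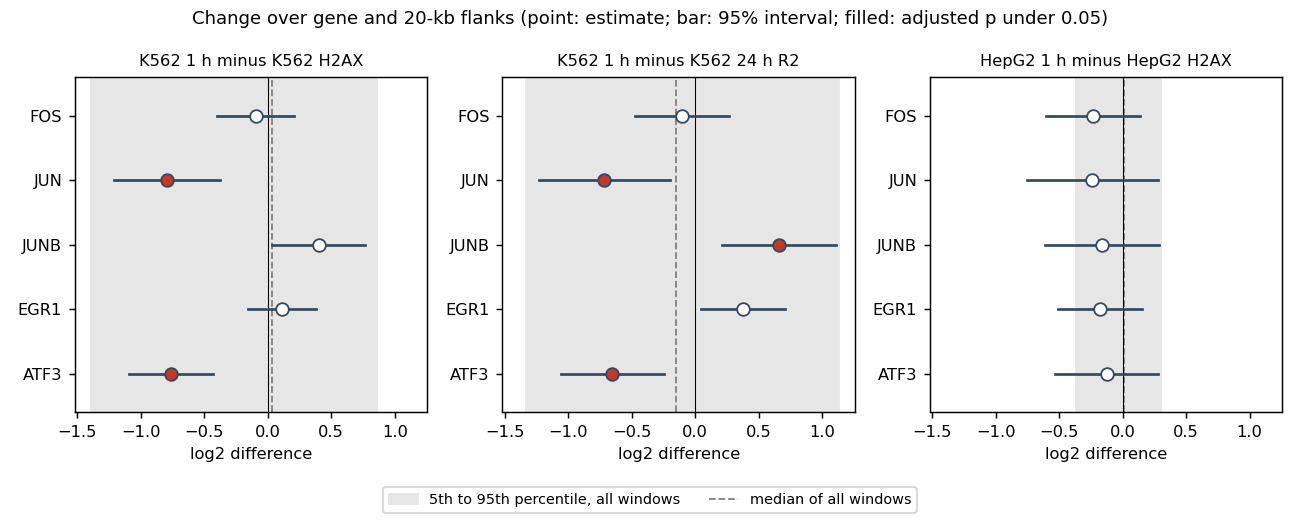
Log2 difference over gene and 20-kb flanks for each member, K562 1 h minus K562 H2AX, K562 1 h minus K562 24 h replicate 2, and HepG2 1 h minus HepG2 H2AX; bars are 95% intervals, filled points have an adjusted p under 0.05, the grey band holds the 5th to 95th percentile of all windows and the dashed line their median. All 5 members lie inside the band in each panel, with JUN and ATF3 filled on the low side in K562 and JUNB filled on the high side against 24 h.

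In HepG2 all 5 loci were lower at 1 h than in H2AX, by amounts that did not pass the test. At 1 h against untreated HepG2 H2AX, FOS had 0.822 against 1.04 and 0.920, JUN 0.928 against 1.14 and 1.07, and JUNB 0.646 against 0.792 and 0.673. EGR1 had 0.849 against 0.957 and 0.977, and ATF3 0.924 against 0.992 and 1.04. The HepG2 gamma-H2AX value was below both H2AX values at each locus, but all come from the same library. The share of all windows below both H2AX values was not computed. By log2 difference the members lay between percentile 13.2 (JUN) and 26.6 (ATF3) of all windows. The log2 differences ran from -0.24 at JUN to -0.13 at ATF3, and none was called by limma, where 0% of all windows were called and 3366 had an unadjusted p under 0.05. This group has 1 library, so its error is borrowed from the other groups, the wide K562 1 h pair among them. A lack of calls therefore does not show that no window differs. Windows were called when only the groups compared were fitted, as given at the end.

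The difference between the lines was tested as the K562 change minus the HepG2 change, each over its own H2AX. ATF3 differed: its log2 level over own H2AX was -0.55 and -0.98 in the K562 libraries and -0.13 in the HepG2 library, a difference of -0.64 (SE 0.232, limma adjusted p = 0.0486). That call is lost under 10 of 15 alternatives, leaving out either H2AX replicate of either line among them (adjusted p 0.108 to 0.167) and taking in 24 h replicate 1 (0.395). Without K562 1 h replicate 2 the difference was -0.42. The other differences were 0.14 for FOS, -0.55 for JUN, 0.56 for JUNB and 0.29 for EGR1, with adjusted p between 0.105 and 0.632. Of the 5 members 1 was thus called, and it was lower; 44.8% of all windows were called and 29.7% were called lower. In untreated cells the lines already differed most at JUNB, whose H2AX level was 1.51 and 1.35 in K562 and 0.792 and 0.673 in HepG2. At ATF3 it was 1.59 and 1.69 in K562 and 0.992 and 1.04 in HepG2. The log2 ratio of mean H2AX, K562 over HepG2, was 0.92 at JUNB and 0.67 at ATF3. It was 0.26 at EGR1, 0.11 at JUN and -0.205 at FOS. These H2AX differences were not tested. Copy number of these loci was not measured, and its part was not tested.

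Within the loci, the bodies of the short genes were set against their own flanks, which removes any level shared by the neighbourhood. In K562 at 1 h JUNB showed the widest gap: its gene bins had 0.874 and 0.814 against 1.69 and 2.30 in its flanks. At 24 h the gene had 1.404 and the flanks 1.17, and in H2AX the gene had 1.16 and 0.881 with flanks at 1.53 and 1.39. The JUNB gene fills 3 of the 43 bins of its locus, so the locus level mainly reflects the flanks. The gene was below its flanks in both 1 h libraries and also in both H2AX libraries. In log2, gene minus flank at JUNB changed by -1.44 at 1 h against 24 h (SE 0.344, limma adjusted p = 0.0544) and by -0.68 against H2AX (adjusted p = 0.258); neither passed.

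None of the 5 genes passed this local test in either comparison, where 1.58% of 552821 tiles and genes were called at 1 h against H2AX (8724 of them) and 1.08% at 1 h against 24 h (5948). Of the 5, 1 had an unadjusted p under 0.05 against H2AX (JUNB) and 3 against 24 h (JUN, JUNB and EGR1), as had 83877 and 90778 of the 552821 tiles and genes. Against H2AX the log2 changes of the gene relative to its flanks were -0.20 for FOS, -0.32 for JUN, -0.28 for EGR1 and 0.23 for ATF3. The last EGR1 bin holds only the final few bases of the gene. It had 2.892 and 2.085 at 1 h, above the gene's other bins, so the EGR1 values here partly reflect its flank. EGR1 without that bin was not tested, but a tile that leaves it out is described below. Against 24 h they were 0.34 for FOS, -0.82 for JUN, -0.82 for EGR1 and 0.14 for ATF3. In HepG2, where this was not tested, the gene minus flank log2 at FOS was -1.05 at 1 h and -0.02 and 0.11 in H2AX. At JUN it was -0.96 at 1 h and -0.50 and -0.65 in H2AX. The other members went the opposite way. JUNB had 0.40 at 1 h against 0.0013 and 0.21 in H2AX, and EGR1 0.36 against -0.02 and -0.35. ATF3 had 0.13 against -0.18 and 0.02. The FOS and JUN genes held about 20 and 24 reads in the HepG2 1 h library.

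**Figure D3:**
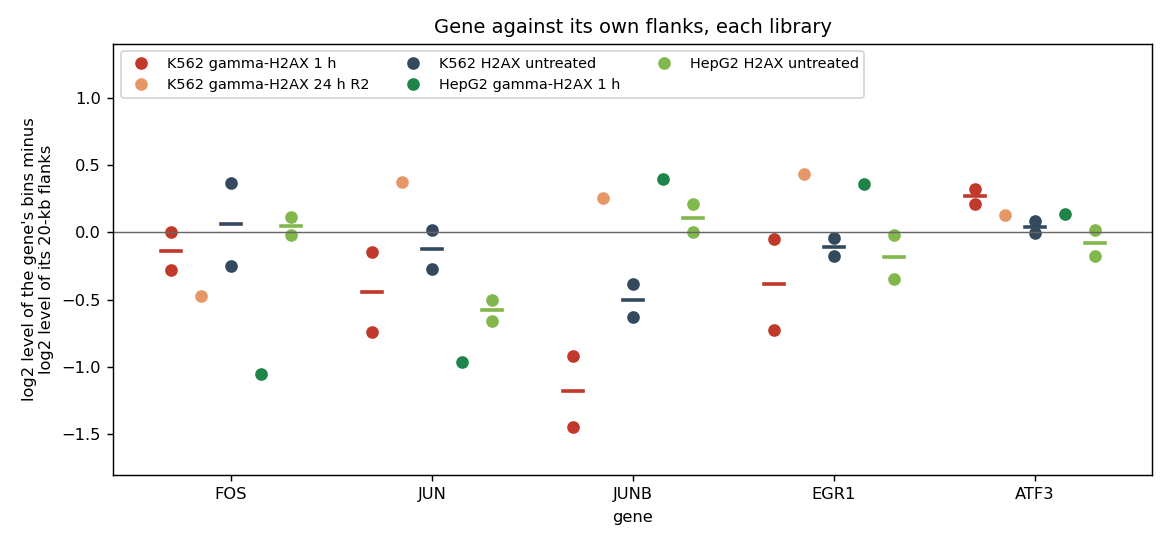
Log2 level of the gene's bins minus log2 level of its 20-kb flanks at the 5 members, 1 point per library with a bar at the mean of 2; 0 means that gene and flanks are level, and 24 h replicate 1 is not drawn. In K562, JUNB at 1 h is at -0.92 and -1.45 and its 24 h library at 0.26. In HepG2 at 1 h, FOS is at -1.05 and JUN at -0.96, while JUNB, EGR1 and ATF3 are at 0.40, 0.36 and 0.13.

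At EGR1 single tiles of 5 kb differed from their surroundings. In the 5-kb tile from -6.18 to -1.18 kb relative to its start (chr5:137795001-137800000), gamma-H2AX at 1 h was 2.44 and 2.81 over flanks of 1.05 and 1.08. The same tile had 0.986 at 24 h, over flanks of 0.943. In H2AX it had 0.704 and 1.31 over flanks of 1.16 and 1.15. Tile relative to flanks was higher by 1.51 on the log2 scale at 1 h than in H2AX (SE 0.281, limma adjusted p = 0.0168). The log2 difference of 1.199 against 24 h did not pass (adjusted p = 0.0963). The next tile, which covers the start and nearly all of the gene (chr5:137800001-137805000), had 0.689 and 0.550 at 1 h, over flanks of 1.30 and 1.395. At 24 h it had 1.43 over 0.888. Tile relative to flanks was lower by 1.73 there at 1 h than at 24 h (SE 0.335, adjusted p = 0.0282). The difference of -0.9996 against H2AX did not pass (adjusted p = 0.0786). The flanks of this tile include the raised upstream tile, and the flanks of that one include this tile. The EGR1 tile results are therefore not independent.

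These tiles were looked at after their values were seen, out of 47 tiles inside the 5 loci, of which 2 were called in each comparison. Over all tiles and genes tested, 1.58% were called at 1 h against H2AX and 1.08% at 1 h against 24 h. So few called tiles, some of them neighbours, are no result about these loci. The EGR1 calls were kept under 6 of 11 alternatives upstream and 5 of 9 over the gene. The upstream call is lost without either K562 H2AX replicate (adjusted p 0.267 without replicate 1 and 0.201 without replicate 2), and both are lost when only the groups compared are fitted (0.0932 and 0.321) or with 24 h replicate 1 in the fit (0.733 and 0.155).

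Highest and lowest bins of a locus were picked by the mean of the 2 K562 1 h libraries, so a single library can be more extreme elsewhere. By this mean the lowest bin of the EGR1 locus is the one that holds its start. It had 0.630 and 0.271 at 1 h, 1.33 at 24 h and 0.661 and 0.369 in H2AX. This bin was therefore low in H2AX as well. In 1 h replicate 1 alone, the bin centred at -9.68 kb was lower, at 0.294. The highest is centred upstream, at -4.68 kb, with 2.83 and 5.85 at 1 h, 0.841 at 24 h and 1.17 and 1.92 in H2AX. At JUNB the highest bin is centred upstream, at -5.81 kb, with 4.45 and 4.52 at 1 h, 0.419 at 24 h and 2.43 and 1.64 in H2AX. The lowest lies within JUNB, 1.19 kb after its start, with 0.714 and 0.339 at 1 h, 0.848 at 24 h and 0.717 and 0.928 in H2AX. RefSeq places HOOK2, which encodes a microtubule-linker protein and overlaps JUNB, together with PRDX2, a peroxiredoxin, THSD8, RNASEH2A, a subunit of ribonuclease H2, and MIR5684 within 20 kb of JUNB, so that locus is dense in genes. EGR1 has REEP2 as its protein-coding neighbour there.

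At JUN the bins with the highest and lowest 1 h mean lie close together. The bin just upstream of the start, centred at -0.715 kb, had 1.67 and 1.73 at 1 h, 1.26 at 24 h and 1.27 and 0.773 in H2AX. The start bin had 0.504 and 0.459 at 1 h, 0.298 at 24 h and 0.918 and 1.09 in H2AX. The lowest bin by this mean, 2.29 kb into the gene, had 0.356 and 0.136 at 1 h, 1.39 at 24 h and 0.738 and 1.55 in H2AX. Each 1 h library alone was lower elsewhere, with 0.312 at -5.715 kb in replicate 1 and 0 at 1.285 kb in replicate 2. Around FOS the highest 1 h bin is the last of the downstream flank, with 1.81 and 1.73 at 1 h, 0 at 24 h and 0.681 and 0.431 in H2AX. FOS flanks were uneven at 1 h: the 20 kb upstream had 0.553 and 0.473 and the 20 kb downstream 1.10 and 1.04, while in H2AX upstream had 0.948 and 0.858 and downstream 0.859 and 0.684. FOS at its start bin had 0.960 and 1.31 at 1 h, 0.419 at 24 h and 0.984 and 0.542 in H2AX; the 1 h and H2AX values overlap and the 24 h value is below them.

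**Figure D4:**
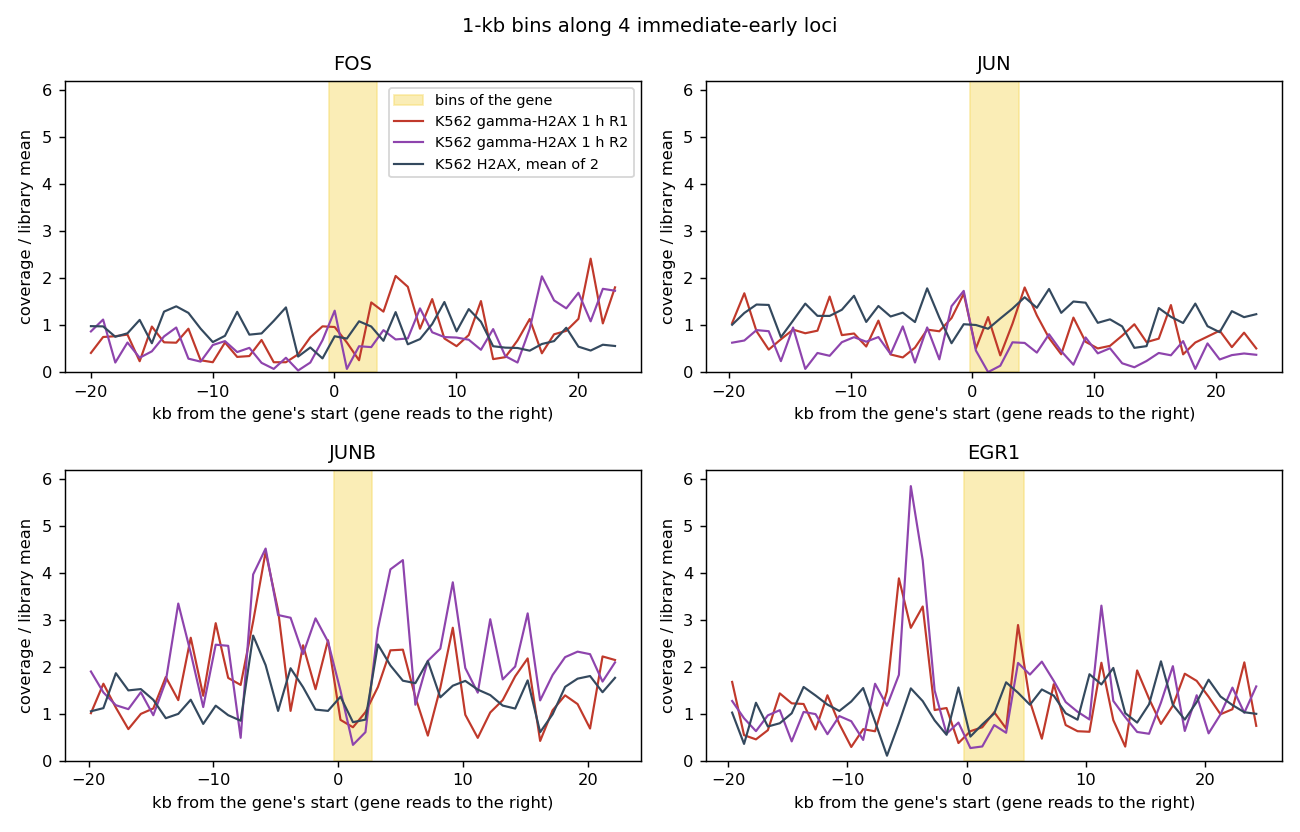
Coverage divided by the library mean in 1-kb bins along FOS, JUN, JUNB and EGR1, by distance from the gene's start, for the 2 K562 1 h libraries and the mean of 2 K562 H2AX libraries; the shaded band is the gene. At JUNB and EGR1 both 1 h lines peak 4 to 6 kb upstream of the start and dip within the band.

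How far the fine structure is repeatable varied between loci. Over the bins of a locus, the Spearman correlation of the 1 h libraries was 0.582 at JUNB (43 bins), 0.434 at FOS (44), 0.348 at EGR1 (45), 0.215 at ATF3 (97) and 0.078 at JUN (44). Bins of a locus share library and neighbourhood, so these values describe likeness only. For the K562 H2AX pair they were 0.360 at JUNB, 0.187 at FOS, 0.525 at EGR1, 0.435 at ATF3 and 0.0427 at JUN. The profile at JUN was thus close to unrelated between replicates in both groups, and single bins there carry little weight.

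ATF3 was the member with H3K27me3, the mark of Polycomb-repressed chromatin. Its locus had an H3K27me3 level of 6.89, above 99.2% of all windows, against 1.21 at JUN, 0.506 at EGR1, 0.319 at FOS and 0.0693 at JUNB. The H3K27me3 library is a single one from irradiated cells, with no untreated counterpart. JUNB, the locus with the highest gamma-H2AX level at 1 h, had the lowest H3K27me3. By another measure, the change over H2AX, JUN and ATF3 were called lower, and these had the highest H3K27me3. The 1 h levels did not follow H3K27me3 throughout. FOS, with little H3K27me3, had a mean 1 h level of 0.785, against 0.957 at ATF3, with overlapping replicates. Across 5 loci this is a description without a test.

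Inside ATF3 the H3K27me3 was broken by a run of 7 bins, from 48.3 to 55.3 kb after the outer start (chr1:212787001-212794000), where it was 0.742 against 8.14 in the gene's other 50 bins. Gamma-H2AX at 1 h was 2.40 and 2.04 in these 7 bins, and 1.04 and 0.695 in the other bins. At 24 h the level was 1.29 in the run and 1.61 elsewhere, and in H2AX it was 1.68 and 1.45 in the run and 1.62 and 1.73 elsewhere. Both 1 h libraries were therefore higher where H3K27me3 was low, the 24 h library was lower there, and the H2AX libraries differed by less and in opposite directions. In HepG2 gamma-H2AX the run had 0.778 and the rest 0.986, with H2AX at 0.718 and 0.763 in the run and 0.969 and 1.08 elsewhere. The run was chosen by its H3K27me3 level after the values were seen. Judged by its distance from the outer start in GRCh38, the inner start of ATF3 described above lies within this run. What that start contributes was not tested.

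A 5-kb tile that lies partly in this run (chr1:212785001-212790000) had 2.25 and 1.64 at 1 h over flanks of 1.25 and 0.826. At 24 h the tile had 0.962 over 1.56, and in H2AX it had 1.42 and 1.32 over 1.65 and 1.73. Tile relative to flanks was higher at 1 h by 1.18 on the log2 scale than in H2AX (SE 0.267, limma adjusted p = 0.0376) and by 1.55 than at 24 h (SE 0.327, adjusted p = 0.0372). The first call was kept under 3 of 11 alternatives and the other under 4 of 9, and both are lost with only the groups compared in the fit (0.0940 and 0.245) or with 24 h replicate 1 in it (1 and 0.210). Thus the ATF3 locus as a whole had a lower level at 1 h than in H2AX, while a stretch near its 3′ end stood above its surroundings.

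Along the bins of ATF3 the Spearman correlation of H3K27me3 with 1 h gamma-H2AX was -0.307 and -0.446 (97 bins), against 0.185 at 24 h and 0.156 and 0.361 in H2AX. At FOS it was -0.376 and -0.473 (44 bins), against 0.103 at 24 h and 0.187 and 0.348 in H2AX, although only 3 of its bins reached the library mean of H3K27me3. At JUN it was -0.172 and -0.127, at JUNB 0.0196 and 0.0831 and at EGR1 -0.0297 and 0.0553. All these libraries share the same bins and their base composition.

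**Figure D5:**
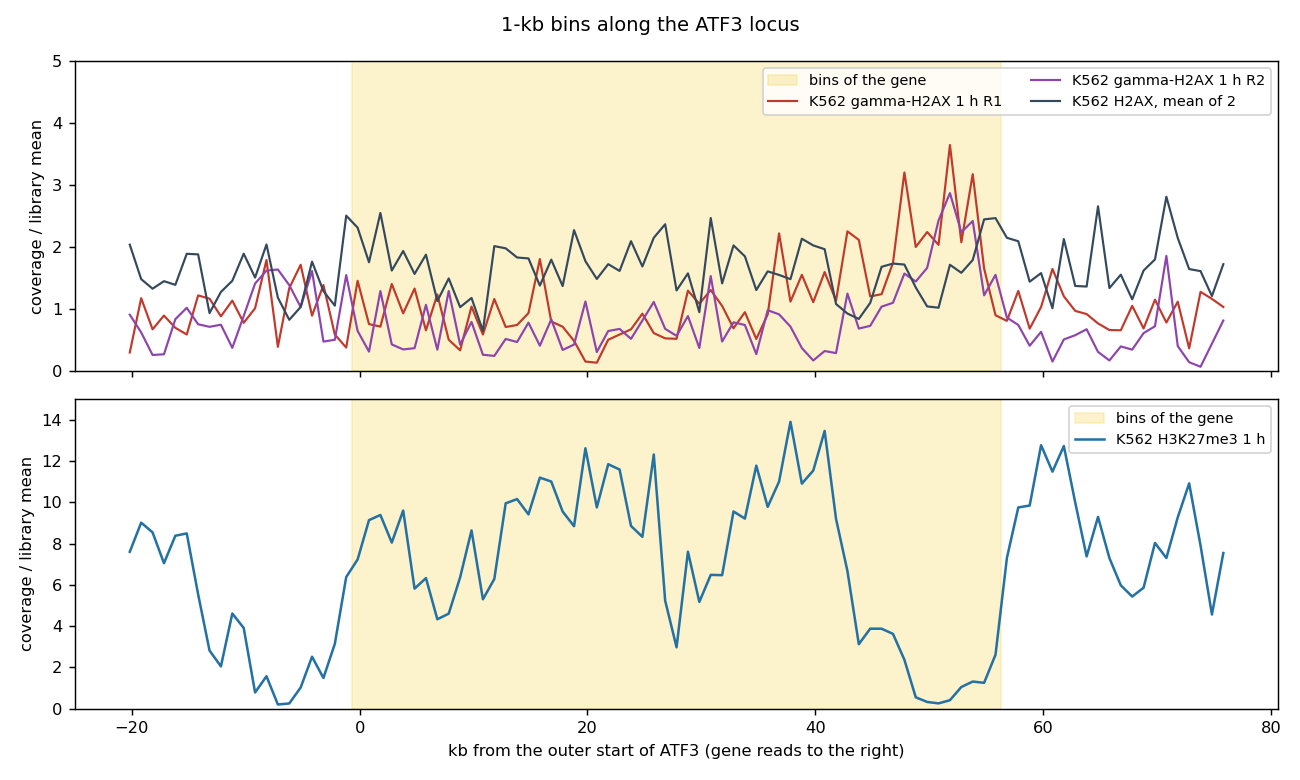
Coverage divided by the library mean in 1-kb bins along the ATF3 locus, by distance from its outer start, for the 2 K562 1 h gamma-H2AX libraries and the mean of 2 K562 H2AX libraries (top) and for K562 H3K27me3 at 1 h (bottom); the shaded band is the gene. Between 48.3 and 55.3 kb H3K27me3 averages 0.742 and the 1 h gamma-H2AX lines average 2.40 and 2.04.

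The deposited peak lists hold no peak at any of the 5 genes or in their 20-kb flanks, in any of the 5 gamma-H2AX libraries. The lists hold 41947 and 46072 peaks for K562 at 1 h, 8 and 13 at 24 h and 170 for HepG2 at 1 h, and 22.2% and 22.1% of all 50-kb windows hold a peak of the K562 1 h lists. The nearest 1 h peaks to EGR1 lie 29.2 kb upstream in replicate 1 and 24.5 kb downstream in replicate 2, with the authors' fold enrichments at 1.91 and 1.43 and q-values of 0.157 and 0.266. The next nearest is 46.9 kb upstream of JUNB in replicate 2, with an authors' fold of 1.49. For JUN a peak 109 kb upstream was listed in both replicates (chr1:59358368-59359380 and chr1:59358287-59359308), with authors' folds of 1.93 and 2.54 and q-values of 0.186 and 0.00726. All other nearest peaks were 108 to 110 kb away, and the higher bins upstream of EGR1 and JUNB were not in the authors' lists.

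For each locus, the 50-kb window at least 1 Mb away with the most similar levels over the 9 libraries of the fit was found by Euclidean distance on the log2 scale. For FOS this was chr14:21750001-21800000 at a distance of 0.20, for JUN chr4:110750001-110800000 at 0.19 and for EGR1 chr5:74600001-74650000 at 0.27. For JUNB it was chr11:62350001-62400000 at 0.33, and for ATF3 chr1:24800001-24850000 at 0.43. Genes in these windows were not looked up, as no annotation of the same build was used here.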

How the data were processed

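The authors deposited 1 coverage track per library, read here as mean signal depth per base in 1-kb bins of hg19 and not scaled to depth. A peak in their deposited lists carries a fold enrichment (a ratio) and −log10 of a q-value; the sources used here do not state the control for the fold. Per the submitters' processing notes the tools included MACS2, SAMtools and BWA 0.7.12.

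Coverage was divided by the library mean. Loci (gene and 20 kb flanks) were tested together with all 50-kb windows, and genes against their flanks together with all 5-kb tiles, on log2(level + 0.05) with limma 3.58.1 in R 4.3.3. The fit had 9 libraries in 6 groups, which leaves 3 residual degrees of freedom, a mean-variance trend, and p-values adjusted by Benjamini-Hochberg over all windows (threshold 0.05); 24 h replicate 1 was left out. Windows with less than 50% of bins, on chromosome Y, or with H2AX of both lines averaging under 0.25 were dropped, and all 5 members passed. The pseudocount understates changes of low windows. Groups with 1 library take the spread of the others. Whether replicates came from separate cultures is not labelled, so the p-values reflect only library-to-library spread, possibly technical. On simulated data with the unequal spreads of the groups the method recovered large changes, missed the smallest, and at 1 h against 24 h also called unchanged windows. All 5 members are named in every comparison.

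The members, the motifs and the 24 h exclusion were chosen with earlier results of these data known. Replicate numbers carry no pairing in the labels. Sequences, neighbouring genes and strands come from RefSeq tables of GRCh38.p14; hg19 gene positions came with the choice of members. A list of other immediate-early genes was not analysed here, as no hg19 annotation was used. Alternatives were other pseudocounts, no filter, 24 h replicate 1 included, only the groups compared, a replicate block, each replicate left out, median-of-ratios scaling, 100-kb windows, 10-kb flanks, and stricter peaks. Other software was numpy 2.4.6, scipy 1.17.1, pandas 2.3.3 and matplotlib 3.10.9 under Python 3.11.15.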

Additional observations from a re-analysis of the deposited data

Results flagged for a closer look

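The change of ATF3 at 1 h over its own H2AX differed between the cell lines, by -0.64 on the log2 scale for K562 minus HepG2 (SE 0.232, limma adjusted p = 0.0486). The locus level over own H2AX was -0.55 and -0.98 on the log2 scale in the 2 K562 libraries and -0.13 in the HepG2 library. HepG2 has 1 gamma-H2AX library, and the call holds in 5 of 15 alternatives. The H2AX levels of the lines differ at ATF3 as well, at 1.59 and 1.69 in K562 and 0.992 and 1.04 in HepG2, and their part in the result was not tested.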

How the results depend on the processing

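Of 405 alternative values for the 5 members, 358 kept direction and side of the threshold, 15 lost a call, 21 gained one and 11 uncalled values changed sign. At 24 h against H2AX the sign changed for JUN (0.114) and ATF3 (0.0479) with 24 h replicate 1 in the fit, for JUN under a replicate block (0.0512), and for FOS under median-of-ratios scaling (-0.0476), with 10-kb flanks (-0.0201) and over the left-out libraries (-0.0701 to 0.0869). FOS also changed sign in the K562 minus HepG2 difference with 10-kb flanks (-0.18). In the gene-against-flank test at 1 h against H2AX, EGR1 ran from -0.612 to 0.0598 and FOS from -0.505 to 0.112 over the left-out libraries, and FOS gave 0.0537 with 10-kb flanks. ATF3 gave -0.0956 there at 1 h against 24 h with 10-kb flanks. The cause was not tested.

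Counts of windows called moved by over 1.5 times as follows. With 24 h replicate 1 in the fit, 1 h against H2AX called 8972 windows, K562 against HepG2 0, and both local tests 0. With 100-kb windows, which leave fewer windows to test, the counts were 19663 (1 h against H2AX), 15852 (1 h against 24 h) and 12648 (K562 against HepG2). With only the groups compared they were 15577 (1 h against 24 h), 24701 (24 h against H2AX), 10225 (HepG2) and 0 in both local tests; JUNB (adjusted p = 0.0203) and EGR1 (0.0334) were then called lower at 24 h against H2AX. Without a filter on low values 24 h against H2AX called 3, HepG2 8 and the local tests 0. The local tests at 1 h against H2AX and against 24 h called 17511 and 16189 tiles at a pseudocount of 0.25 and 866 and 656 with 10-kb flanks, and the test against 24 h 2907 at 0.01. Leaving out 1 library gave 12127 to 38161 windows for K562 against HepG2, and 0 to 24056 and 15890 to 24769 tiles in the local tests against H2AX and 24 h. JUNB against its flanks at 1 h minus 24 h was called at a pseudocount of 0.25 (adjusted p = 0.0127) and without 1 h replicate 1 (0.00795). With 0 peaks at the members under the main rule, both stricter peak rules could only return 0, so they add no information.

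The replicate block called 38180 (1 h against H2AX), 31114 (1 h against 24 h), 0 (24 h against H2AX), 0 (HepG2), 21300 (K562 against HepG2) and 9176 and 4339 (local tests). Among the members it ended the ATF3 call between the lines (adjusted p = 0.10025). Deviations of same-numbered replicates correlated at 0.151, 0.031 and 0.194, and the numbers pair nothing in the labels. Median-of-ratios scaling moved levels by -0.25 to -0.15 on the log2 scale, and H3K27me3 by 1.52. Short genes rest on 20 to 142 reads per gamma-H2AX or H2AX library and on 4 to 42 in H3K27me3, which limits single-bin values most.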
